A study of Sus scrofa with 20 samples.

Results

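miR-451, miR-144 and miR-486 are the miRNAs by which red cells are usually recognised in blood RNA, and they were followed here in small RNA libraries of pig PBMCs, the mononuclear fraction of blood, which is mostly lymphocytes with some monocytes and is collected from a density gradient. They were picked by name, with earlier results of these data known. Of the 608 miRNAs in the counts against human miRNAs, 4 entries belong to them (hsa-miR-451a, hsa-miR-144-3p, hsa-miR-144-5p and hsa-miR-486-5p). Of the 284 in the counts against pig miRNAs, 3 do (ssc-miR-451, ssc-miR-144 and ssc-miR-486), so that 7 entries were described in all. The 10 ICH libraries came from blood drawn 6 h after an intracerebral hemorrhage, or ICH, which was imitated by injecting autologous blood through a burr hole into the white matter of the frontal lobe. The 10 Control libraries came from blood drawn before the injection, and their treatment is labelled untreated. All were from female American Yorkshire pigs of 80 to 90 days and 36 to 41 kg, and replicate numbers 1 to 10 occur in both groups. Sham-operated animals were not analysed here, so each comparison sets blood after the injection against blood before it.

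miR-144 and miR-451 are cut from one primary transcript, which the transcription factor GATA1 switches on in erythroid precursors. miR-451 is unusual in that its hairpin is too short for Dicer and is cut by Argonaute 2 itself. miR-486 lies in an intron of ANK1, the gene of the ankyrin that anchors the red cell membrane skeleton, and is also made in muscle. All of them remain in mature red cells, which have lost their nuclei, so a gradient that leaves red cells among the PBMCs can carry these miRNAs over. In Sscrofa11.1 the RefSeq gene table places MIR451 on chromosome 12 at 45088808 to 45088872 and MIR144 at 45088958 to 45089033, with 85 bases between them and both inside the interval of ERAL1. It places MIR486-1 on chromosome 17 at 10758855 to 10758934, inside ANK1.

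The libraries held 919313 to 2177834 human-reference reads and 896960 to 2103685 pig-reference reads. miR-150-5p, abundant in mature lymphocytes, averaged 8342 ± 2269 CPM in ICH libraries and 10764 ± 2249 CPM in Control libraries (SD, n = 10 each; CPM, counts scaled to a common library size after TMM adjustment). miR-223-3p, of myeloid cells, averaged 1885 ± 503 CPM in ICH libraries and 1228 ± 353 CPM in Control libraries. A lymphocyte miRNA and a myeloid miRNA were thus both present, and which myeloid cells held miR-223-3p was not tested. Both tables count largely the same reads: miR-451 had 9341 pig-reference and 9352 human-reference reads over the 20 libraries, and no library differed by more than 3 reads. For miR-144 the largest difference was also 3 reads and for miR-486 it was 12, so the human-reference values are given below, and the pig-reference ones where they differed in direction or in a call. Replicate number 4 stood apart. Its Control library was the lowest of 10 for each of the 4 human-reference members, at an ordinary depth of 1225768 reads, and results that rest on it are given with and without it.

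Together the 4 members were a small share of every library. They summed to 432 to 1130 RPM (reads scaled to the library's total) in ICH libraries, with a median of 667, and to 106 to 849 RPM in Control libraries, with a median of 544. The highest sum was 0.113% of reads. The sum was higher in the ICH library in 9 of 10 pairs. The lowest was Control 4 at 106 RPM (exact 95% binomial interval 88.6 to 126), and the highest was ICH 8 at 1130 (interval 1068 to 1194); intervals cover counting error only. miR-451a made up 29.1% to 73.4% of this sum in ICH libraries and 31.7% to 71.4% in Control libraries, so the libraries differed in the mixture of the members as well as in their total. In bulk libraries such as these, fewer cells of a type and less RNA per cell cannot be told apart.

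**Figure D1:**
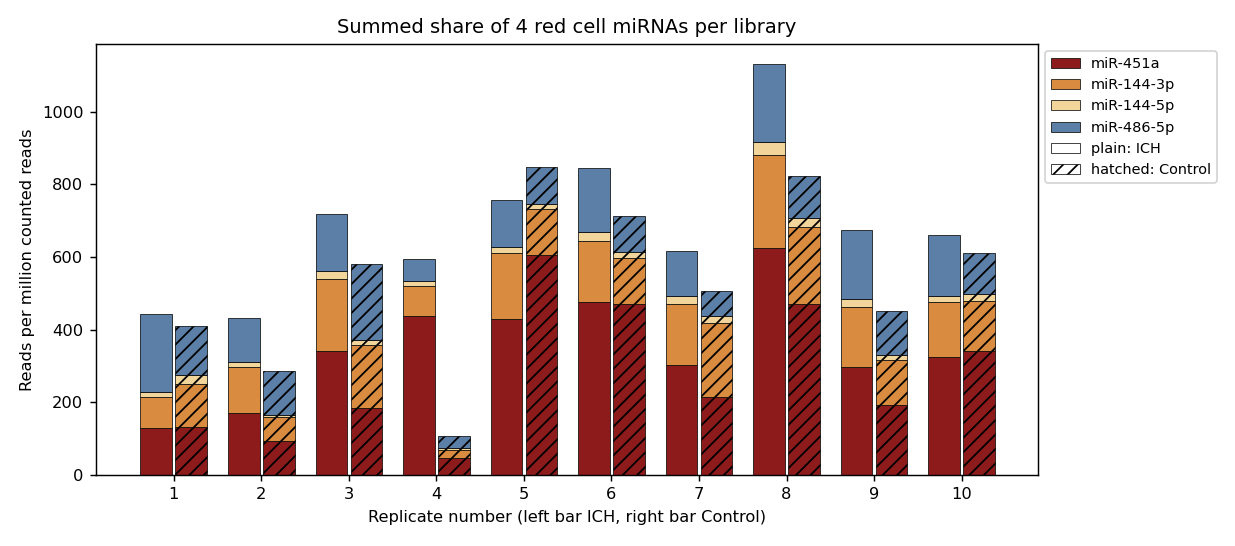
Scaled reads (RPM, human reference) of miR-451a, miR-144-3p, miR-144-5p and miR-486-5p, stacked, for each replicate number, with the ICH library as the plain left bar and the Control library as the hatched right bar. The sum ran from 432 to 1130 in ICH libraries and from 106 (number 4) to 849 in Control libraries.

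Among the members miR-451a was the most heavily sequenced. It ranked 90 of 608 human-reference miRNAs by mean share of reads, miR-144-3p ranked 119, miR-486-5p 122 and miR-144-5p 206. miR-451a had more reads than miR-144-3p in 20 of 20 libraries, and the 3p arm of miR-144 had more than the 5p arm in 20 of 20. miR-144-3p and miR-486-5p were neighbours that did not differ beyond their spread, with miR-144-3p ahead in 6 of 10 ICH libraries and 6 of 10 Control libraries. miR-451a exceeded miR-486-5p in 9 of 10 ICH libraries and 7 of 10 Control libraries. These orders are of read numbers, and differences between sequences in how well adapters join to them were not corrected. miR-486-3p, the other arm of miR-486, had 1 read in all 20 libraries together. miR-451b and miR-4732, neighbours of the miR-144 and miR-451 cluster in human, have no row in the table used here.

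miR-451a, which in mouse protects red cells against oxidants, had the widest spread of the members. In ICH libraries it ran from 125 to 738 CPM with a median of 358, and in Control libraries from 47.7 to 580.1 CPM with a median of 205. The groups overlapped, with 1 ICH library above every Control library and 2 Control libraries below every ICH library. It was higher after ICH in 7 of 10 pairs and lower in numbers 1, 5 and 6, furthest in number 5 (465 CPM in the ICH library against 580.1 in the Control library). Number 4 went furthest, with 443 CPM in the ICH library against 47.7 in the Control library, a log2 change of 3.18, while the other changes lay between -0.32 and 1.04. Among the 245 human-reference miRNAs tested, its SD of log2 CPM ranked 20 in ICH libraries (0.71, against a median SD of 0.37 over all tested) and 3 in Control libraries (1.12, median 0.37).

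miR-144-3p, the main arm, which in human red cells lowers the antioxidant regulator NRF2, ran from 84.5 to 300.45 CPM in ICH libraries (median 168) and from 24.7 to 186 CPM in Control libraries (median 131). It was higher after ICH in 9 of 10 pairs, with 3 ICH libraries above every Control library. miR-144-5p was scarce, at 12 to 55 reads in ICH libraries and 5 to 37 reads in Control libraries. It ran from 12.7 to 41.6 CPM in ICH libraries (median 20.3) and from 4.26 to 25.2 CPM in Control libraries (median 15.9). It too was higher in 9 of 10 pairs, and both arms were lower after ICH in number 1 alone. In the pig-reference counts miR-144 was higher in 8 of 10 pairs, since number 7 had a log2 change of -0.10 there and of 0.0046 for miR-144-3p. For the 5p arm counting error by itself gives a coefficient of variation of about 18.7% in ICH libraries and 21.4% in Control libraries, where the observed ones were 39.95% in ICH libraries and 42.9% in Control libraries. For miR-451a counting error gives 4.38% against 45.6% observed in ICH libraries, and 4.91% against 67.4% observed in Control libraries.

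miR-486-5p, which lowers the transcription factor FOXO1 in muscle, ran from 62.6 to 253.6 CPM in ICH libraries (median 149.6) and from 34.1 to 167 CPM in Control libraries (median 107). The ranges overlapped, with 4 ICH libraries above every Control library and 2 Control libraries below every ICH library. It was higher after ICH in 9 of 10 pairs. The exception was number 3, with 142 CPM in the ICH library against 167 in the Control library. The SD of the log2 change over pairs was 0.44 for miR-486-5p, 0.60 for miR-144-3p, 0.64 for miR-144-5p and 1.005 for miR-451a, against a median of 0.40 over all miRNAs tested. Without number 4 it was 0.46 for miR-486-5p, 0.44 for miR-144-3p, 0.60 for miR-144-5p and 0.53 for miR-451a, so the wide spread of miR-451a rested largely on that number. In 6 of 10 numbers all 4 members were higher after ICH, in 3 numbers (3, 5 and 6) 3 of them were, and in number 1 only miR-486-5p was.

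**Figure D2:**
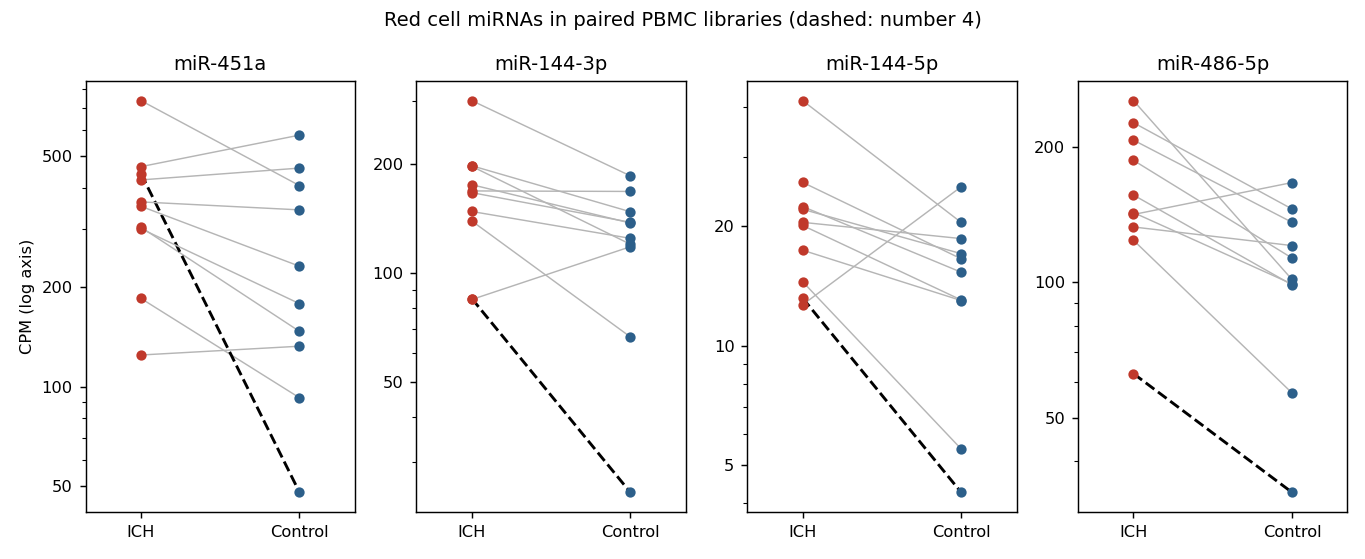
CPM (log axis, a different range in each panel) of the 4 members in the ICH and the Control library of each replicate number, joined by lines, with number 4 dashed. miR-486-5p and both arms of miR-144 were higher after ICH in 9 of 10 pairs and miR-451a in 7 of 10.

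Compared within pairs, miR-486 rose in the counts against both references, while miR-451, with a log2 fold change of like size, did not pass the test. In the human-reference counts miR-486-5p rose 1.55-fold (log2 fold change 0.63 ± 0.13 SE, adjusted p = 0.00107) and miR-144-3p rose 1.39-fold (0.47 ± 0.14, adjusted p = 0.0212; edgeR quasi-likelihood test with the replicate number as a block, Benjamini-Hochberg adjustment over 245 miRNAs). miR-144-5p, at 0.51 ± 0.19 (adjusted p = 0.063), and miR-451a, at 0.64 ± 0.28 (adjusted p = 0.14), did not pass. That is 2 of 4 members called higher, where 13.1% of all miRNAs tested were called higher and 6.12% lower (19.2% in either direction), and 0 called lower. The median log2 fold change was 0.57 over the members and 0.03 over all tested. In the pig-reference counts 1 of 3 members was called higher, miR-486 (0.57 ± 0.13, adjusted p = 0.00398), where 11.7% of the 179 tested were called higher and 10.1% lower (21.8% in all). The other pig-reference members did not pass: the estimate was 0.57 ± 0.27 for miR-451 (adjusted p = 0.158) and 0.40 ± 0.15 for miR-144 (adjusted p = 0.065). The median over the 3 was 0.57, against -0.04 over all tested.

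By size of change miR-451a ranked 9 and miR-486-5p 10 of 245 from the highest. miR-451 had the largest of the 179 standard errors in the pig-reference fit and miR-451a the second largest of 245 in the human-reference fit, where the medians were 0.12 each. This rested on number 4: without it the standard error was 0.14 for miR-451 (rank 43 of 181, beside 0.13 for miR-486) and 0.14 for miR-451a (rank 92 of 245, beside 0.13 for miR-486-5p). Without the block, which treats the libraries as unpaired, 0 of 4 human-reference members were called (adjusted p = 0.136 for miR-486-5p and 0.388 for miR-144-3p) and 0 of 3 pig-reference members (0.193 for miR-486), where edgeR called 3.67% of all human-reference miRNAs (2.86% higher, 0.816% lower) and 0% of the pig-reference ones. At an unadjusted p under 0.05 without the block, 1 of 4 human-reference and 1 of 3 pig-reference members passed, both miR-486, where 18.4% and 19.6% of all tested did. miR-486 was called in each of the other alternatives and without any 1 replicate number. miR-144-3p was not: its adjusted p was 0.114 without number 2, 0.0637 without number 4, 0.0645 without number 5, 0.0604 without number 6, 0.0698 without number 8 and 0.0678 without number 9. Without number 4, miR-451 in the pig-reference counts had a smaller change of 0.38 and yet passed, with an adjusted p of 0.0475, as did miR-144 (0.33, adjusted p = 0.0475). In the human-reference counts without number 4 miR-451a had a change of 0.36 (adjusted p = 0.0661). Without number 1, the adjusted p was 0.0182 for miR-144-5p and 0.0121 for the pig-reference miR-144.

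**Figure D3:**
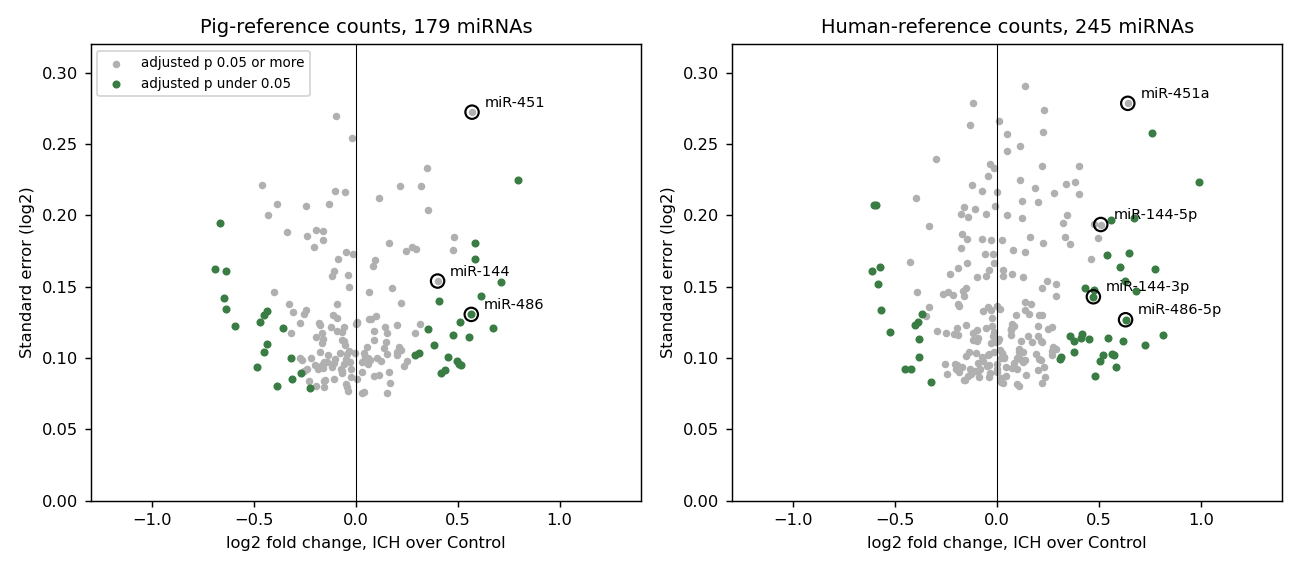
Log2 fold change of ICH over Control (x axis) against its standard error (y axis) for every miRNA tested with the replicate block, pig reference on the left and human reference on the right; green points have an adjusted p under 0.05 and the members are circled. miR-451 had the largest standard error of 179, at 0.27, and miR-486 one of 0.13 at a like fold change; without number 4 the standard errors were 0.14 and 0.13 and the log2 fold changes 0.38 and 0.58.

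Ratios within a library need no scaling between libraries and ask whether the members moved in proportion. The log2 ratio of miR-451a to miR-144-3p, which come from one transcript, was 1.10 ± 0.56 in ICH libraries and 0.90 ± 0.76 in Control libraries (SD, n = 10 each). The mean difference within pairs was 0.20 ± 0.22 (SE; exact two-sided sign-flip permutation test, p = 0.391, adjusted p = 0.768 over 4 ratios). The log2 ratio of miR-451a to miR-486-5p was 1.12 ± 0.92 in ICH libraries and 1.06 ± 1.07 in Control libraries, with a rise in 3 of 10 pairs (exact permutation test by sign flips, p = 0.855, adjusted p = 0.855). The mean difference of 0.07 ± 0.34 (SE) became -0.19 without number 4. For miR-144-3p to miR-486-5p the difference was -0.13 ± 0.24 (exact p = 0.576, adjusted p = 0.768). The arms of miR-144 kept the steadiest ratio, at 2.95 ± 0.26 in ICH libraries and 3.01 ± 0.41 in Control libraries, with a difference of -0.06 ± 0.098 (exact p = 0.549, adjusted p = 0.768). None of the 4 ratios passed. Single pairs ranged widely, from -0.84 to 2.34 in the log2 difference of miR-451a to miR-486-5p, and a p that misses the threshold does not show that the members moved in proportion.

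Covariation between libraries was taken as a possible index of red cell carry-over, and whether it follows carry-over was not tested. It was measured within the ICH libraries, within the Control libraries and over the changes within pairs. The arms of miR-144 moved together. Their Pearson's r was 0.882 in ICH libraries, 0.872 in Control libraries and 0.882 over the 10 changes (permutation tests with 100000 resamples, p = 0.00053, 0.00345 and 0.00147; adjusted p = 0.0138, 0.0299 and 0.0191 over 26 relations). Spearman's rho was 0.770 in ICH libraries, 0.612 in Control libraries and 0.830 over the changes (permutation tests, p = 0.0127, 0.0667 and 0.00446), and with adjustment 0 of the 26 rank correlations passed. Without the 2 libraries farthest from the median of miR-144-3p, r was 0.838 in ICH libraries and 0.765 over the changes but 0.161 in Control libraries, where the relation rests on numbers 2 and 4. Without number 2 alone, none of the 3 passed the adjustment (adjusted p = 0.0551, 0.133 and 0.0947), and without number 4 alone the Control relation did not (0.169).

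miR-451a and miR-144-3p, from one transcript, had positive correlations that did not pass the adjustment. Pearson's r was 0.632 in ICH libraries, 0.742 in Control libraries and 0.750 over the changes (permutation tests, p = 0.0484, 0.0101 and 0.0217; adjusted p = 0.105, 0.0658 and 0.0753). Spearman's rho was 0.503 in ICH libraries, 0.515 in Control libraries and 0.467 over the changes (permutation tests, p = 0.142, 0.131 and 0.18; adjusted p = 0.361 each). Leaving out the 2 farthest libraries took r to -0.0676 in ICH libraries (numbers 1 and 8 out, number 4 still in). It took r to 0.616 in Control libraries and 0.637 over the changes. Number 4 moved these values in both directions. ICH 4 had the eighth lowest miR-451a of 10, at 443 CPM, but the second lowest miR-144-3p, at 85.1 CPM, and without number 4 the r in ICH libraries was 0.911 (permutation test, adjusted p = 0.0321). Without it r was 0.472 in Control libraries and 0.365 over the changes (permutation tests, adjusted p = 0.474 and 0.575). miR-451a with miR-144-5p gave r = 0.687 in ICH libraries, 0.641 in Control libraries and 0.673 over the changes (permutation tests, adjusted p = 0.0788, 0.105 and 0.114), with rho = 0.418, 0.273 and 0.697 (adjusted p = 0.372, 0.586 and 0.198).

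miR-486-5p showed no correlation with miR-451a that passed. Pearson's r was -0.00794 in ICH libraries, 0.380 in Control libraries and 0.0738 over the changes (permutation tests, p = 0.982, 0.284 and 0.819; adjusted p = 0.998, 0.362 and 0.926). Spearman's rho was 0.188, -0.127 and 0.0788 (permutation tests, p = 0.612, 0.733 and 0.837). The positive value in Control libraries rested on number 4, without which it was -0.273, while r in ICH libraries was then 0.250 and over the changes -0.161. miR-486-5p with miR-144-3p gave r = 0.561 in ICH libraries, 0.608 in Control libraries and -0.0011 over the changes (permutation tests, adjusted p = 0.146, 0.146 and 0.998; rho = 0.442, 0.115 and -0.0909). Without the 2 farthest libraries these were 0.731 in ICH libraries, -0.386 in Control libraries and -0.269 over the changes. Without number 1 the ICH value was 0.890 (permutation test, adjusted p = 0.0233), and without number 4 it was 0.237. Whether the r of miR-451a with miR-144-3p differed from that with miR-486-5p was not tested, and with 10 values an r that misses the threshold does not show that 2 miRNAs vary independently.

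**Figure D4:**
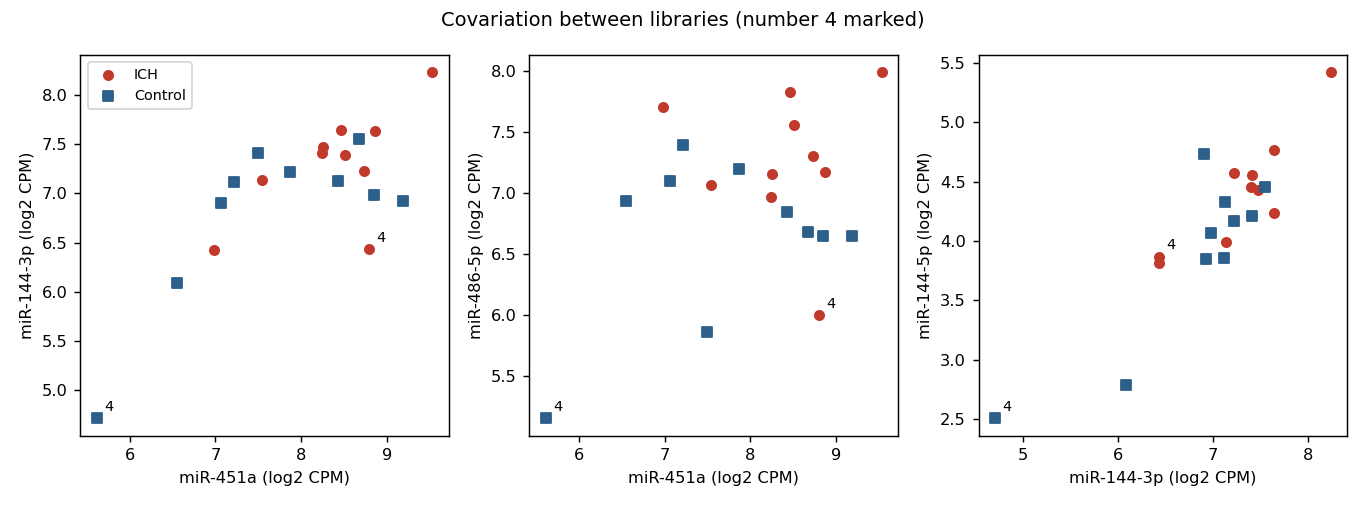
Log2 CPM of miR-144-3p against miR-451a, of miR-486-5p against miR-451a, and of miR-144-5p against miR-144-3p, with 1 point per library, ICH as red circles and Control as blue squares, and number 4 marked. Control 4 lies at the lower left of each panel, while ICH 4 is high for miR-451a (443 CPM) and low for miR-144-3p (85.1 CPM) and miR-486-5p (62.6 CPM).

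Libraries of one replicate number were also compared with each other. The ICH level went with the Control level of the same number at r = 0.758 for miR-486-5p, 0.696 for miR-144-3p, 0.483 for miR-144-5p and 0.476 for miR-451a (permutation tests over 10 pairs, adjusted p = 0.0751, 0.078, 0.224 and 0.224; rho = 0.467, 0.770, 0.345 and 0.588). Without the 2 farthest pairs the values were 0.530, 0.670, 0.910 and 0.404. Single numbers moved them: without number 4, miR-451a gave 0.811 (permutation test, adjusted p = 0.0367) and miR-144-5p 0.314, and without number 1 miR-144-3p gave 0.871 and miR-144-5p 0.811 (permutation tests, adjusted p = 0.0165 and 0.0233). The level of miR-451a had an r of 0.557 with the log2 library total in ICH libraries and of 0.369 in Control libraries, and neither passed (permutation tests, adjusted p = 0.146 and 0.362; rho = 0.527 and 0.273; 0.858 and 0.250 without the 2 farthest libraries). The part of depth in the covariation was not tested.

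The change of miR-451a was set against the changes of miRNAs of other blood cells, and none of the 5 relations passed the adjustment. With log2 CPM from library totals in place of TMM, those with miR-223-3p (r = 0.779) and miR-191-5p (r = -0.808) did (permutation tests, adjusted p = 0.0477 and 0.0155). With miR-223-3p, the myeloid miRNA, r was 0.785 over 10 pairs (permutation test, p = 0.0161, adjusted p = 0.0751; rho = 0.564), and 0.0998 without numbers 4 and 5. With miR-191-5p, abundant in platelets, r was -0.785 (permutation test, adjusted p = 0.0753; rho = -0.430), and -0.0746 without them. With miR-150-5p r was 0.652 and with miR-126-3p, of platelets and endothelium, -0.326 (permutation tests, adjusted p = 0.146 and 0.441; rho = 0.297 and -0.491); without numbers 4 and 5 these were -0.127 and -0.806. With miR-23a-3p, the usual partner of miR-451a in hemolysis ratios, r was 0.0406 (permutation test, adjusted p = 0.985; rho = -0.0182; -0.118 without numbers 4 and 5). In number 4 the changes of 3 of these 5 lay outside the range of the other numbers: miR-223-3p changed by 1.97 on the log2 scale against -0.14 to 1.05 in the other numbers, miR-150-5p by 0.41 against -1.02 to -0.28, and miR-191-5p by -0.46 against -0.11 to 0.27. Those of miR-126-3p (0.47, others 0.19 to 1.09) and miR-23a-3p (0.016, others -0.41 to 0.30) lay inside it. Their part in the change of miR-451a there was not tested. The share of all miRNAs tested whose change in number 4 lay outside the other numbers was not counted.

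The miRNAs most like each member differed. Likeness was Pearson's r of log2 CPM over the 20 libraries after removing group means, given as a description; libraries of one number are taken to share an animal, and all values share library scaling. In the pig-reference counts miR-148a-3p was the most like miR-451 (r = 0.806), followed by miR-342, an miRNA of lymphocytes (0.728), miR-144 (0.727), miR-423-5p (0.710) and miR-101 (0.709). miR-486 came 59th of 178, at 0.263. For miR-144 the order was miR-181c (0.763), miR-451 (0.727), miR-22-3p (0.610), miR-486 (0.576) and miR-425-5p (0.573). For miR-486 it was miR-10a-5p (0.834), of a HOX cluster, then miR-181d-5p (0.742), miR-126-3p (0.712), miR-331-5p (0.694) and miR-504 (0.613). miR-144 came eighth there and miR-451 came 35th. In the human-reference counts the 5 most like miR-451a were miR-148a-3p (0.784), miR-144-3p (0.709), miR-342-3p (0.705), miR-101-3p (0.698) and miR-423-5p (0.683).

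In likeness over the libraries of both groups, leaving out number 4 set miR-486 further apart from miR-451 and miR-144. Over the remaining 18 libraries miR-451 kept its likeness to miR-144 (r = 0.715) and to miR-148a-3p (0.847), and miR-486 to miR-10a-5p (0.833). The r of miR-486 with miR-144 was then -0.0464 and with miR-451 -0.0134, where it had been 0.576 and 0.263 over all 20. The r of miR-486 with miR-126-3p was 0.333 in place of 0.712. Over both groups together, the positive values of miR-486 with both miRNAs of the other locus were thus absent without number 4. Within the groups the signs were mixed. In the human-reference counts without number 4, miR-486-5p with miR-451a gave r = 0.250 in ICH libraries and -0.273 in Control libraries. With miR-144-3p it gave 0.237 in ICH libraries and -0.286 in Control libraries. Number 4 was chosen after seeing the data, and no other number was left out of the likeness. Within ICH libraries, leaving out number 1 moved the r of miR-486-5p with miR-144-3p the other way, from 0.561 to 0.890.

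**Figure D5:**
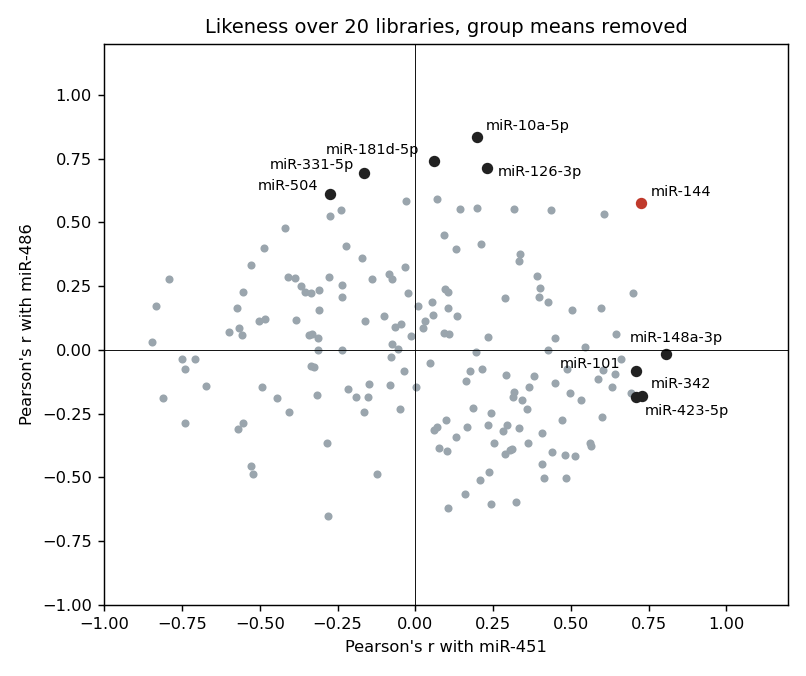
Pearson's r of each other tested pig-reference miRNA with miR-451 (x axis) and with miR-486 (y axis), over 20 libraries with group means removed; the 5 most like each are named, with miR-144 in red. miR-144 lies high on both axes (0.727 and 0.576), while miR-148a-3p lies far right near 0 on the y axis and miR-10a-5p lies at the top.

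Other miRNAs linked to red cells were counted as well. Of 15 tested human-reference entries of a list of miRNAs enriched in red cells or late erythroid cells (members left out), 2 rose and 13 did not pass, with a median log2 fold change of -0.00034 against 0.03 over all tested, where 13.1% of all tested were called higher. In edgeR with the block the 2 were miR-182-5p (0.62 ± 0.11 SE, adjusted p = 0.000415) and miR-183-5p (0.47 ± 0.15, adjusted p = 0.0253), each higher in 9 of 10 pairs. Entries of this list, those that rose and those that did not, are also made outside the red lineage. The 13 that did not pass ran from -0.21 (miR-16-5p, adjusted p = 0.14) to 0.20 (miR-25-5p, adjusted p = 0.256). In the pig-reference counts the list gave 2 rises (miR-182 and miR-183) among 6 tested, where 11.7% of all tested were called higher, and without the block 0 in either table. Of 10 entries that fall as erythroid cells mature, 2 rose, miR-223-5p (0.82 ± 0.12) and miR-223-3p (0.63 ± 0.15), and 2 fell, miR-150-5p (-0.38 ± 0.10) and miR-181a-5p (-0.32 ± 0.083), with a median of -0.11. Of all human-reference miRNAs tested, 13.1% were called higher and 6.12% lower. In the pig-reference counts 2 of 6 fell and 0 rose, where 10.1% of all tested were called lower and 11.7% higher, but miR-223 was not tested there. Without the block 2 rose and 0 fell in the human-reference counts, where 2.86% of all tested were called higher and 0.816% lower. In the pig-reference counts 0 of 6 passed without the block, where 0% of all tested did.

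Lists of miRNAs of other cells the gradient can hold were counted in the same way, where 13.1% of all human-reference miRNAs were called higher and 6.12% lower, and 11.7% and 10.1% of the pig-reference ones. In the platelet list 1 of the 8 human-reference entries counted rose, miR-126-3p (0.56 ± 0.10), and 7 did not pass, among them miR-151a-3p (-0.20 ± 0.092, adjusted p = 0.135), with a median of 0.05. miR-151a-5p, whose row name ends in @, was missed by the name match and is not in this count. It was called lower (-0.38 ± 0.11, edgeR with the block, adjusted p = 0.0187). The pig-reference miR-199a-3p was missed likewise and did not pass (0.22 ± 0.22, edgeR with the block, adjusted p = 0.517). In the lymphocyte list 4 of 9 fell (miR-29a-3p, miR-181a-5p, miR-31-5p and miR-150-5p) and 5 did not pass, with a median of -0.33. In the myeloid list 3 of 9 rose (both arms of miR-223 and miR-27a-5p, the last by 0.73 ± 0.11) and 6 did not pass, with a median of 0.19. In the pig-reference counts 1 of 8 platelet entries rose and 2 fell, 5 of 6 lymphocyte entries fell and 0 of 6 myeloid entries passed. Neither miR-223 nor miR-27a-5p was among the pig-reference miRNAs tested, so the 3 myeloid rises could not recur there. Without the block the lymphocyte calls were 0 of 9 and 0 of 6, while the platelet and myeloid calls in the human-reference counts were again 1 of 8 and 3 of 9. Of all human-reference miRNAs 2.86% were called higher and 0.816% lower without the block, and of the pig-reference ones 0%. Some miRNAs stand in more than 1 list. Their part in the rise of miR-486-5p and miR-144-3p was not tested.

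The deposited tables also exist in a filtered form, and the filter touched the members unevenly. It kept 99.6% of all human-reference reads, 94.5% of those of miR-451a, 93.8% of miR-144-3p and 94.3% of miR-486-5p, but 76.5% of those of miR-144-5p (60% to 92.3% by library). The median over the 336 miRNAs of that table was 89.9%. What the filter removed is not given in the sources used here, and the unfiltered counts were used throughout.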

How the data were processed

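Total RNA of PBMCs, separated on a density gradient, was made into small RNA libraries with an NEBNext kit, per the labels' protocols. The authors deposited raw counts (whole reads of each miRNA in each library), a filtered version of them, and RPM of the filtered version. Bowtie, FastQC and bcl2fastq are named in the submitters' processing notes, which list Sscrofa11.1, GRCh38 and hg38 as builds. How reads were counted, how those matching several miRNAs were handled and what was filtered are not stated in the labels or headers. miR-486 has more than 1 gene copy in some genomes, and reads of copies would not be told apart.

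The unfiltered counts, as deposited by the authors, were fitted with edgeR 4.0.16 in R 4.3.3 (filterByExpr, TMM, robust quasi-likelihood fit) over all miRNAs, with the replicate number as a block, a threshold of 0.05 after Benjamini-Hochberg adjustment, and DESeq2 1.42.0, limma 3.58.1 and other settings as alternatives. A standard error is the log2 fold change over the square root of F. Log2 CPM has a prior count of 2, and ratios add 0.5 reads. Permutation tests were two-sided. The plan set the block as the main fit because the libraries were to be paired by number and the design text describes blood before and 6 h after ICH. Deviations from the group mean correlated between same-numbered samples at 0.146 to 0.672 (human reference) and 0.129 to 0.768 (pig reference), over 0.1 in all 10 pairs of each table. Between differently numbered samples the median was -0.071 (human reference) and -0.065 (pig reference). Same-numbered samples were treated as pairs, as the plan had already set. No label says outright that one number is one animal. In the fits with the block and in the ratio tests, p-values cover the spread of the changes within pairs. Elsewhere, where nothing says more, they cover the spread between these libraries. Every pair of libraries within a group differed by more than sampling noise (chi-square per degree of freedom at least 14.2).

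The 7 members, the lists and the tests were chosen with earlier results of these data known. miRNAs other than members were named by a rule: the 5 most like each pig-reference member and miR-451a, and in each list those called and the 2 with the smallest p. miR-223-3p, miR-150-5p, miR-126-3p, miR-191-5p and miR-23a-3p were set in the plan as partners for the change of miR-451a. miR-16-5p and miR-25-5p were named as the ends of a range. miR-151a-5p and miR-199a-3p were named because the matching of list names missed them. Figures were drawn with matplotlib 3.10.9.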

Additional observations from a re-analysis of the deposited data

Results flagged for a closer look

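Levels, changes and ratios of the members made 29 groups of 10 values, and in 7 of them the highest or lowest value lay unusually far from the rest (gap over range above Dixon's 95% critical value). Chance gives about 1 in 20, and pig-reference and human-reference entries count the same reads. Number 4 held 6 of the 7. The change of miR-451a there was 3.18 on the log2 scale against -0.32 to 1.04 in the other numbers, and that of the pig-reference miR-451 was 3.18 against -0.39 to 1.03. ICH 4 was low for miR-486-5p, at 6.00 log2 CPM where the remaining ICH libraries had 6.97 to 7.99, and for the pig-reference miR-486, at 6.06 against 6.97 to 7.99. Control 4 was low for miR-144-3p, at 4.71 log2 CPM where the remaining Control libraries had 6.09 to 7.55, and for the pig-reference miR-144, at 4.74 against 6.16 to 7.64. In number 1 the ICH library had a log2 ratio of miR-144-3p to miR-486-5p of -1.29, against -0.19 to 0.47 in the other ICH libraries.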

How the results depend on the processing

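With the replicate block 2 of 4 human-reference and 1 of 3 pig-reference members were called; with no replicate block it was 0 and 0. In the pig-reference counts the number was 2 with upper-quartile scaling, with no filter and with DESeq2, and 1 to 3 without a replicate number. In the human-reference counts it was 1 with upper-quartile scaling, library totals, the replicate as a random effect and the deposited RPM. It was 1 to 3 without a replicate number, and 3 with no filter, miR-451a included (0.58 ± 0.12 SE, edgeR with the block, adjusted p = 0.000117). The pig-reference miR-451 did not pass with no filter (0.62 ± 0.31, edgeR with the block, adjusted p = 0.275). For no filter, DESeq2, the random effect, the deposited RPM and the fits without a number, shares of all miRNAs called are not given here. The log2 fold changes of all 7 members were above 0 in every alternative run, from 0.32 to 0.73. Upper-quartile scaling moved the median of all miRNAs by 0.12 in the pig-reference and -0.12 in the human-reference fit, and library totals by -0.11 in the human-reference fit; the calls over all miRNAs were then 35 higher and 9 lower, 18 and 29, and 15 and 24, against 21 and 18 (pig) and 32 and 15 (human) with TMM. Of the ratios, that of the arms of miR-144 turned to 0.028 with a pseudocount of 5, and that of miR-451a to miR-486-5p ran from -0.19 to 0.17 without a number; no ratio passed in any setting. Of 26 relations 3 passed, all of them between the 2 arms of miR-144, which come from one hairpin. With library totals 7 passed, and without a number 0 to 9. Those that changed sign without a number were miR-451a with miR-486-5p (-0.349 to 0.257 in ICH, -0.273 to 0.482 in Control, -0.161 to 0.218 for changes), miR-144-3p with miR-486-5p (-0.286 to 0.809 in Control, -0.187 to 0.145 for changes), and the change of miR-451a with that of miR-150-5p (-0.108 to 0.893) and miR-23a-3p (-0.167 to 0.253). The r of the changes of miR-144-3p and miR-486-5p was 0.00586 with library totals and 0.074 in the pig-reference counts, and that of miR-451 and miR-486 in ICH was 0.022 in the pig-reference counts. The likeness of miR-486 without replicate 4, chosen after seeing the data, was -0.0134 to miR-451 and -0.0464 to miR-144. The cause of these changes was not tested. Counts of 5 to 55 reads limit what can be said of miR-144-5p.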
